A study of Mus musculus with 7 samples.

Results

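Nupr1 and 9 genes of the integrated stress response were examined in endpoint tumors of a mouse glioma model by bulk RNA-Seq. The 10 genes were Nupr1, Atf3, Atf4, Atf5, Ddit3, Trib3, Chac1, Asns, Psat1 and Phgdh, and all 10 were found by symbol among the 19257 genes of the deposited table. They were chosen by name with earlier results of the same GPC6 against 3xCR comparison known, so their differences between the groups are given as a description with standard errors. No p-value of theirs is printed, and fits across all genes serve only to count calls beside the share of all genes called.

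Both groups carried tumors started by in utero electroporation of progenitors lining the lateral ventricles, in embryos on CD-1 and C57BL/6 backgrounds. The plasmid mixture held 1 construct with Cas9 and guides that included those to Trp53 and Nf1, together with a piggyBac system that labelled the transfected cells with GFP. The 3xCR group (n = 3 libraries, replicates 2, 3 and 4, genotype "control") had these alone, and the GPC6 group (n = 4 libraries, replicates 1 to 4) also overexpressed GPC6, a heparan sulfate proteoglycan, from piggyBac. The tissue was labelled brain and the cell type neural, and each library came from 1 brain dissected under fluorescence. Animals of both sexes were used, the sex and age behind each library were not given, and no brain without a tumor was among the 7 libraries. A piece of tumor holds glia, neurons, vessels and immune cells beside the electroporated cells, so fewer cells of a type and less RNA per cell cannot be told apart in any value below.

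The integrated stress response is a shared route by which cells answer amino acid shortage, unfolded protein in the endoplasmic reticulum, double-stranded RNA and heme or mitochondrial defects. Sensor kinases phosphorylate the initiation factor eIF2, most protein synthesis slows, and the mRNAs of Atf4 and Atf5 are translated more. ATF4 then binds CEBP-ATF response elements with partners of the CEBP family and switches on genes for amino acid supply and, under lasting stress, the transcription factor CHOP (Ddit3), the pseudokinase Trib3 and the glutathione-degrading enzyme Chac1. Nupr1 encodes a small stress-induced chromatin-associated protein and lies downstream of ATF4 in several settings. The amounts of protein and their phosphorylation were not measured here.

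The stretches below are shown because TGATGNAA is a core of the CEBP-ATF response element that ATF4 binds. They let a reader see which of the 10 genes carry it near their start. RefSeq promoters (build GRCm38.p6, 250 bases before to 50 after each annotated start, both strands searched) were matched for all 10 genes, with 12 starts in all because Atf5 and Psat1 have 2 each. The element was found in 5 of the 10 genes, and the same search found it in 3.97% of 32851 promoters and in 4.51% of the 27025 genes that had one. Capitals mark the match, and each stretch reads 5′ to 3′ in the direction of the gene.
Nupr1, chr7:126625562-126625591, minus strand: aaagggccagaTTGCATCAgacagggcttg
Atf3, chr1:191183425-191183454, minus strand: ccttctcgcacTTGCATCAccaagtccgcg
Chac1, chr2:119351038-119351067, plus strand: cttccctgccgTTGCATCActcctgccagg
Trib3, chr2:152344028-152344057, minus strand: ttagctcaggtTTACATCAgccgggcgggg
Asns, chr6:7693214-7693243, minus strand: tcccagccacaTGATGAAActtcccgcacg
Nupr1, Atf3 and Chac1 shared the letters TTGCATCA, the reverse complement of a TGATGNAA word, with its first base at -110, -110 and -193 from the start. In Trib3 the match began at +15, after the RefSeq start, and in Asns at -23 and on the forward strand. The Trib3 match lies upstream of the start that GENCODE M21 annotates, and outside its exons. The stretches of Nupr1 and Asns, by contrast, lie within exons that GENCODE M21 annotates from starts further upstream. Restricted to the 250 bases before the RefSeq start, the element remained in 4 genes, without Trib3, against 3.45% of promoters. The palindrome TGACGTCA (CRE) was in none of the 12 windows, against 1.79% of promoters, and TGANTCA (AP-1) was in Ddit3 alone, against 7.81%. These are matches of letters, sequence outside these windows was not searched, and no binding was measured.

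**Figure D1:**
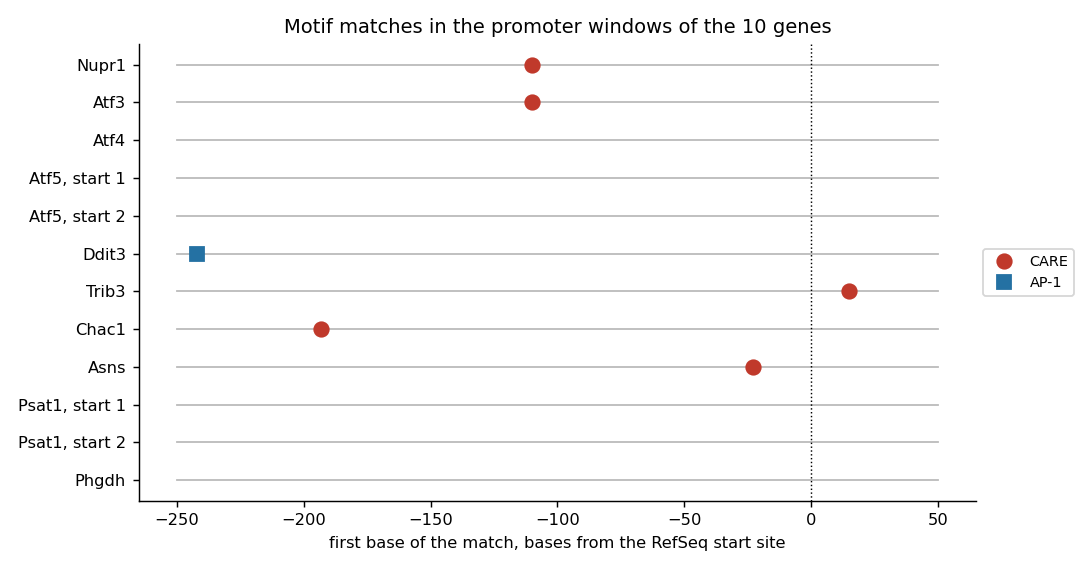
Position of motif matches in the RefSeq promoter windows of the 10 genes. The horizontal axis is the first base of the match in bases from the annotated start (dotted line), each grey line is 1 window, circles are CEBP-ATF response element cores (CARE) and the square is an AP-1 word. Circles stand in the windows of Nupr1, Atf3, Trib3, Chac1 and Asns, and the square stands in that of Ddit3.

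The libraries held 7197692 to 18879762 reads on genes (median 10566182), and each of the 10 genes had 21 to 9482 reads in every library. Gpc6, the overexpressed gene, had 217, 226 and 126 normalized counts in the 3xCR libraries and 675, 263, 3434 and 5084 in GPC6 replicates 1 to 4, so that the library labelled GPC6 replicate 2 lay close to the 3xCR range. The species of the introduced GPC6 sequence, on which its alignment to the mouse gene depends, is not given in the sources used here. A pair of other libraries stood apart in their cell type markers. 3xCR replicate 4 had the highest scores of the 7 for fibroblast, macrophage and plasma cell markers, and GPC6 replicate 1 had the highest for neurons and the lowest for proliferation. The remaining libraries were not alike either. GPC6 replicate 4 had the lowest scores for oligodendrocytes (-2.05) and choroid plexus (-2.56), and GPC6 replicate 2 the highest for oligodendrocyte precursors (1.30). Values are therefore given per library, and group differences also without 3xCR replicate 4 or GPC6 replicate 1.

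Per kilobase of annotated exon, the 10 genes spanned a wide range of levels. The length used is the union of all annotated exons of a gene, 2.51 kilobases for Nupr1. For Nupr1 it includes exon upstream of the RefSeq start, so its place among the 10 genes depends on that choice. Phgdh had the highest mean over the 7 libraries with 1435 normalized counts per kilobase, followed by Atf4 (985) and Psat1 (902). Asns (498), Atf5 (354) and Ddit3 (237) lay in the middle. Nupr1 (177), Chac1 (109), Trib3 (102) and Atf3 (83.1) were lowest. The order of neighbours was fixed in all 7 libraries only for Psat1 above Asns and Atf5 above Ddit3. Atf4 exceeded Psat1 in 3 of 7 libraries, Nupr1 exceeded Chac1 in 4 and Trib3 exceeded Atf3 in 3, so these neighbours do not differ beyond their spread. In the GPC6 libraries Nupr1 (60.9 ± 29.9 per kilobase, SD), Chac1 (61.3 ± 42.6) and Atf3 (58.7 ± 39.3) had nearly the same mean level, whereas in the 3xCR libraries Nupr1 (332 ± 87.1) stood above both Chac1 (173 ± 143) and Atf3 (116 ± 50.1).

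Nupr1 had a lower level in every GPC6 library than in any 3xCR library, with the lowest log2 fold change of the 10 genes on the limma scale. Trib3 had the lower log2 fold change on recovered reads with DESeq2 (-2.72, Nupr1 -2.44) and edgeR (-2.72, Nupr1 -2.46), and without 3xCR replicate 2. Nupr1 was read at 929.6, 585 and 992 normalized counts in 3xCR replicates 2, 3 and 4, and at 116, 66.2, 200.5 and 229 in GPC6 replicates 1 to 4. The lowest 3xCR value was 2.55 times the highest GPC6 value. The means were 835 ± 219 (SD, n = 3) and 153 ± 75.3 (n = 4), with a log2 fold change (GPC6 minus 3xCR, on log2(normalized count + 1)) of -2.56 (SE 0.46). The difference was of like size without 3xCR replicate 4 (-2.42), without GPC6 replicate 1 (-2.48) and without the library labelled GPC6 replicate 2 (-2.21), which held the lowest Nupr1 value. Reads per library for Nupr1 ran from 67 to 1696, and the exact 95% Poisson interval of the highest GPC6 value (200.3 to 262) did not reach that of the lowest 3xCR value (540.3 to 633). Such intervals cover counting error only.

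Part of the microglial genes showed the same split of the libraries. Summed over the 8 microglia markers, the 3xCR libraries had 22989.8 to 39515 normalized counts and the GPC6 libraries 12640.3 to 19929.8, without overlap, and none of the 8 was at 0 in any library. Groups did not overlap for 4 of the 8 (lower in GPC6), Tmem119 and C1qa among them, against 3.52% of the genes tested. P2ry12, Cx3cr1, Csf1r and Sall1 overlapped, with log2 fold changes of -0.41, -0.29, -0.18 and 0.01, and C1qa made up most of the sum in 3xCR replicate 4. C1qa, which encodes a complement subunit made by microglia, had a log2 fold change of -1.07 (SE 0.38), less than that of Nupr1. The part of microglial content in the Nupr1 difference was not tested.

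**Figure D2:**
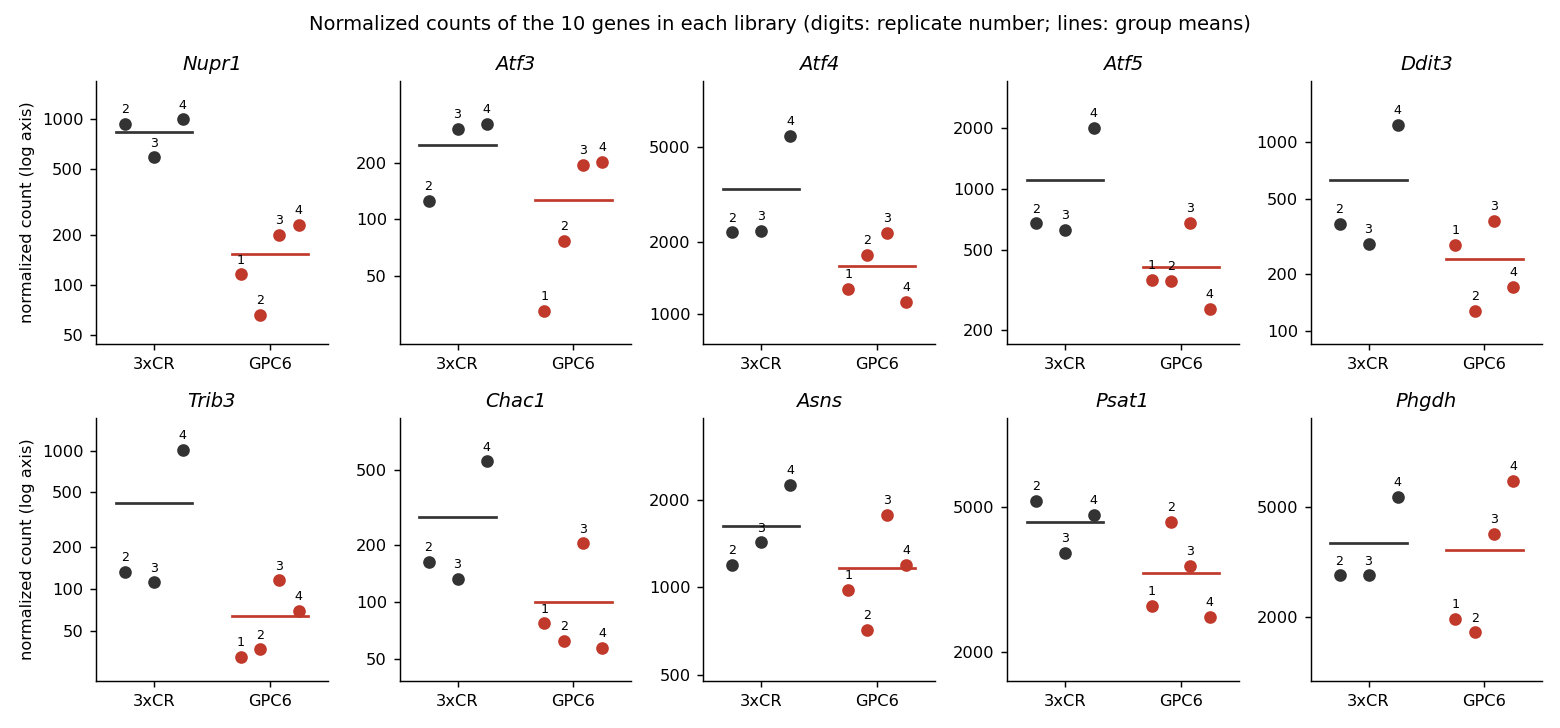
Normalized counts of the 10 genes in each library, 1 panel a gene. The vertical axis is the normalized count on a log axis, points are libraries marked with their replicate number (black 3xCR, red GPC6) and lines are group means. Nupr1 has all 3 3xCR points above all 4 GPC6 points, and 3xCR replicate 4 is the highest point in 8 of the 10 panels.

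The transcription factors Atf4, Atf5 and Atf3 had lower means in GPC6, with 1 library weighing heavily in each. Atf4, the central effector of the response, had 2188, 2216 and 5526 normalized counts in the 3xCR libraries and 1272, 1766.5, 2177 and 1120.4 in the GPC6 libraries. The groups did not overlap, but the lowest 3xCR value was 1.01 times the highest GPC6 value, and the exact 95% Poisson intervals of those 2 values (2121 to 2257 and 2092 to 2265) overlapped. The log2 fold change was -0.97 (SE 0.40) with all libraries and -0.52 without 3xCR replicate 4.

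Atf5, a close relative of Atf4 that is also under translational control, had 675, 629 and 2001 normalized counts in 3xCR and 354, 349.7, 679 and 256 in GPC6. Only GPC6 replicate 3 reached into the 3xCR range, and 3xCR replicate 4 stood far above the other 3xCR libraries. The log2 fold change was -1.30 (SE 0.49), and -0.76 without 3xCR replicate 4. Atf5 overlaps Nup62 and Il4i1 on the opposite strand, and whether strand was used in counting is not given in the sources used here.

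Atf3, an early stress and injury response factor of the same family, had 125, 302 and 320.4 normalized counts in 3xCR and 32.5, 77.1, 194 and 202 in GPC6. The groups overlapped, because 3xCR replicate 2 lay below GPC6 replicates 3 and 4. GPC6 replicate 1 was the lowest library, with 21 reads. The log2 fold change of -1.19 (SE 0.69) became -0.66 without GPC6 replicate 1 and -0.96 without 3xCR replicate 4, so Atf3 differed from the other factors in which library moved it most.

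The genes tied to lasting stress had their highest values in 3xCR replicate 4. Ddit3, which encodes CHOP, had 366, 288 and 1231 normalized counts in 3xCR and 284, 127, 379.7 and 171 in GPC6. GPC6 replicate 3 lay above 3xCR replicates 2 and 3, and the other GPC6 libraries lay below all 3xCR libraries. The exact 95% Poisson intervals of GPC6 replicate 1 (245 to 329) and 3xCR replicate 3 (257 to 322) overlapped, however. So did those of GPC6 replicate 3 (345 to 417) and 3xCR replicate 2 (339 to 395). The log2 fold change went from -1.20 (SE 0.58) to -0.56 without 3xCR replicate 4. Ddit3 overlaps Mars, a tRNA synthetase gene, and Gm4189 on the opposite strand.

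Trib3, a pseudokinase induced by CHOP and ATF4 that feeds back on ATF4, had 133, 112 and 1018 normalized counts in 3xCR and 32.5, 36.6, 115 and 68.9 in GPC6. It had the widest range of the 10 genes, with the highest library 31.4 times the lowest, against a median of 2.81 over the genes tested. GPC6 replicate 3 lay just above the lowest 3xCR library, and the other 3 GPC6 libraries lay below all 3xCR libraries. Its log2 fold change was -2.14 (SE 0.82), and -1.12 without 3xCR replicate 4. Chac1, whose enzyme breaks down glutathione, had 163, 133 and 552 normalized counts in 3xCR and 77.3, 62.2, 204 and 57.6 in GPC6, with GPC6 replicate 3 above 2 of the 3xCR libraries. Its log2 fold change was -1.39 (SE 0.62), and -0.75 without 3xCR replicate 4.

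The amino acid synthesis genes had overlapping groups. Asns, the asparagine synthetase, had 1194, 1425 and 2250.05 normalized counts in 3xCR and 978, 713, 1772 and 1195 in GPC6. Its log2 fold change was -0.50 (SE 0.36), and -0.24 without 3xCR replicate 4. Psat1 and Phgdh encode enzymes of serine synthesis from a glycolytic intermediate, Phgdh the first step and Psat1 the next.

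Psat1 had 5197, 3735 and 4757 normalized counts in 3xCR and 2671, 4568, 3448 and 2489 in GPC6. It was the steadiest of the 10 genes, with the highest library 2.09 times the lowest, and its highest library was 3xCR replicate 2. The log2 fold change of -0.50 (SE 0.27) stood at -0.46 without 3xCR replicate 4. Phgdh had 2821, 2819 and 5435 normalized counts in 3xCR and 1966, 1752, 3982 and 6195 in GPC6. GPC6 replicate 4 was the highest library for Phgdh and replicates 1 and 2 the lowest, so the GPC6 libraries enclosed all 3xCR libraries. The log2 fold change was -0.21 (SE 0.49) with all libraries. It was 0.11 without 3xCR replicate 4, 0.06 without GPC6 replicate 2 and -0.0002 without GPC6 replicate 1.

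**Figure D3:**
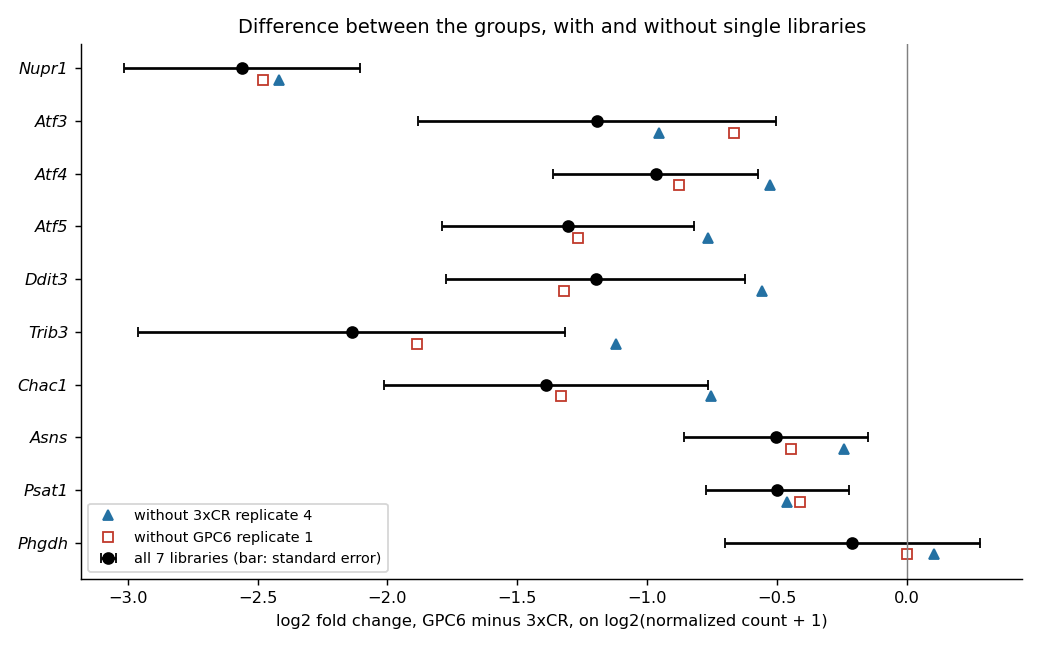
Difference between the groups for each gene, as the log2 fold change of GPC6 minus 3xCR on log2(normalized count + 1). Circles and bars are the value and standard error over all 7 libraries, triangles leave out 3xCR replicate 4 and open squares leave out GPC6 replicate 1. Nupr1 lies between -2.56 and -2.42 in all 3 fits, the triangles of Atf4, Atf5, Ddit3, Trib3 and Chac1 lie closer to 0 than their circles, and the triangle of Phgdh is at 0.11.

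All 10 genes had a lower mean log2 value in GPC6, as did 51.7% of the 14782 genes tested. Their median log2 fold change was -1.20, and -0.66 without 3xCR replicate 4, against -0.019 over all genes tested. Groups did not overlap, with GPC6 lower, for 2 of the 10 (Nupr1 and Atf4), against 3.52% of the genes tested, and for none with GPC6 higher, against 2.80%. The count was 4 without 3xCR replicate 3, which added Trib3 and Psat1 (6.05% of the genes tested then), and 6 without GPC6 replicate 3, which added Atf5, Ddit3, Trib3 and Chac1 (4.79%). At an adjusted p under 0.05, limma called none of the 10 genes and 0% of the genes tested. At an unadjusted p under 0.05 it took Nupr1, Atf4, Atf5 and Trib3 and 4.66% of the genes tested, and without 3xCR replicate 4 it took Nupr1 alone. On recovered reads edgeR called 0 of the 10 genes (5 unadjusted, against 6.7%) and limma voom 0 (3 unadjusted, against 3.38%). DESeq2 called Nupr1 (5 unadjusted, against 12.1%) among 0.0609% of the 14782 genes, with or without an adjusted p. It gave no adjusted p for Atf3, Trib3 and Chac1, so it could not call them. Since these genes were named from this comparison, nothing is read from their counts of calls.

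3xCR replicate 4 was the highest library for 8 of the 10 genes, against 23.9% of the genes tested. Psat1 and Phgdh were the exceptions. Averaged over the 10 genes as centred log2 levels, 3xCR replicates 2, 3 and 4 scored 0.29, 0.23 and 1.54, and GPC6 replicates 1 to 4 scored -0.90, -0.92, 0.19 and -0.43. Thus 3xCR replicate 4 stood far above the rest, and GPC6 replicate 3 lay within reach of 3xCR replicates 2 and 3. Nupr1 did not share this shape, since its value in 3xCR replicate 4 (992) was close to that in replicate 2 (929.6). Nor did Atf3, whose value in 3xCR replicate 4 (320.4) was close to that in replicate 3 (302).

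Other cell types moved with 3xCR replicate 4. The 12 plasma and B cell genes, a list chosen after their values had been seen, summed to 103226 normalized counts in that library and to 627 to 5795 in the other 6, and 11 of 11 tested were highest there. Jchain, which encodes the joining chain of secreted antibodies, had 84648 normalized counts in 3xCR replicate 4 and 72.6 to 4650.2 elsewhere, and Tnfrsf17 and Fcrla were at 0 in at least 1 library. The 8 pericyte and fibroblast markers summed to 48130 there, mostly from Col1a1, Col1a2 and Col3a1, against 653 to 4637 in the other 6, and 6 of the 8 were highest there, whereas Rgs5, a pericyte gene, had its lowest value there (58.0). The 8 macrophage and monocyte markers summed to 34912, against 748 to 11606, with 29595 from Lyz2, and 4 of the 8 were highest there. None of the 16 was at 0 in any library. The part of these cells in the high Atf4, Atf5, Ddit3, Trib3 and Chac1 values of 3xCR replicate 4 was not tested.

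**Figure D4:**
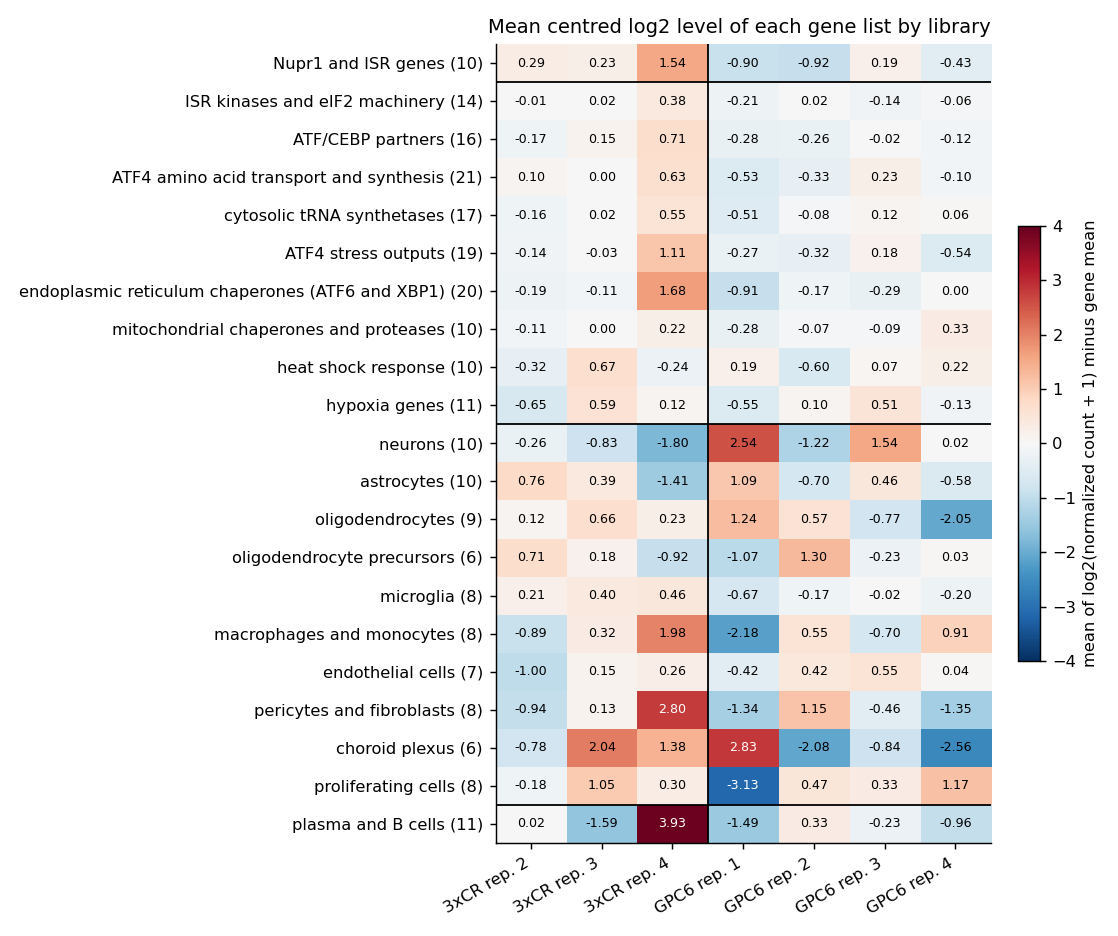
Mean centred log2 level of each gene list in each library. Cells are the mean over the list of log2(normalized count + 1) minus the mean of each gene over the 7 libraries, with the number of genes tested in brackets; the vertical line parts the 3xCR and GPC6 libraries, and horizontal lines part the 10 genes, the pathway lists, the cell type markers and the list added later. 3xCR replicate 4 has the highest value of the 10 genes (1.54), of the endoplasmic reticulum chaperones (1.68) and of the plasma and B cell genes (3.93).

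The kinases and eIF2 machinery upstream of ATF4 held genes in both directions. Of 14 genes measured, 8 had a lower and 6 a higher mean in GPC6, with a median log2 fold change of -0.19, and -0.01 without 3xCR replicate 4. Eif2ak1, the heme-regulated kinase, was highest among them at 0.18 (SE 0.18). Dnajc3, an endoplasmic reticulum co-chaperone known to restrain eIF2 kinases, was lowest at -0.87 (SE 0.39) with 3017 normalized counts in 3xCR replicate 4 and 637 to 1090 elsewhere. Groups did not overlap, with GPC6 lower, for 2 of the 14 genes, Dnajc3 and Eif2ak2, against 3.52% of the genes tested. Eif2ak2, the kinase for double-stranded RNA, was named after its values were seen. Eif2ak2 had 688, 899 and 898 normalized counts in 3xCR and 298, 608, 633 and 480.5 in GPC6, with a log2 fold change of -0.76 (SE 0.30).

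The ATF and CEBP partners had 13 of 16 genes with a lower mean in GPC6 and a median of -0.45, and -0.24 without 3xCR replicate 4. Batf3 was lowest at -0.89 (SE 0.46) and Atf2 highest at 0.40 (SE 0.30), and Nfe2l1, the most abundant, was at 0.11 (SE 0.27). Among 21 genes of amino acid transport and synthesis, 17 had a lower mean in GPC6, with a median of -0.41, and -0.31 without 3xCR replicate 4. Slc3a2, the heavy chain shared by several amino acid exchangers, had 4894 normalized counts in 3xCR replicate 4 and 1849 to 2908 elsewhere, with a log2 fold change of -0.41 (SE 0.32). Cth, which makes cysteine from cystathionine, was lowest at -1.48 (SE 1.17). It had 58.1, 54.0 and 268 normalized counts in 3xCR and 46.4, 2.96, 63.9 and 113 in GPC6. The groups overlapped, and the value in GPC6 replicate 2 stood for 3 reads. Got1, a transaminase also abundant in neurons, was highest at 0.65 (SE 0.59). Its top value was in GPC6 replicate 1, the library with the highest neuronal score.

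The cytosolic tRNA synthetases, listed with the tRNA exporter Xpot, had 15 of 17 genes with a lower mean in GPC6, but a median of only -0.24, and -0.05 without 3xCR replicate 4. They ran from Wars at -0.65 (SE 0.38) to Vars at 0.18 (SE 0.27), with the abundant Aars at -0.23 (SE 0.25). Of 19 further stress outputs of ATF4, 15 had a lower mean in GPC6 and the median was -0.39, but without 3xCR replicate 4 the count was 9 and the median 0.02. Adm2, which encodes a peptide hormone of the adrenomedullin family, had 5.48, 4.65 and 70.4 normalized counts in 3xCR and 0, 1.98, 0.89 and 1.03 in GPC6, where each library held at most 2 reads. Ero1l, an oxidase of the endoplasmic reticulum, was at 0.13 (SE 0.28), and Sqstm1, the autophagy receptor p62 and the most abundant of the list, at -0.06 (SE 0.33).

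The chaperones of the endoplasmic reticulum, which ATF6 and XBP1 control in the unfolded protein response, had the lowest median of the 9 pathway lists with all libraries, but not without 3xCR replicate 4, where the amino acid genes and the ATF and CEBP partners were lower. All 20 had a lower mean in GPC6, with a median of -0.69, and 19 of 20 were highest in 3xCR replicate 4. Without that library 14 of 20 had a lower mean and the median was -0.20. Creld2 had 608, 709 and 4102 normalized counts in 3xCR and 181, 492, 518 and 478 in GPC6, with a log2 fold change of -1.65 (SE 0.70). Calr, the calcium-binding chaperone calreticulin, was at -0.75 (SE 0.47) and Syvn1, a ligase of protein degradation there, at -0.21 (SE 0.40). Plasma cells are rich in this chaperone machinery, and their markers were highest in the same library. Their part was not tested.

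The 3 lists of other stress programs held genes in both directions. The median log2 fold change was -0.06 over 10 mitochondrial chaperones and proteases, from Lonp1 at -0.36 (SE 0.21) to Afg3l2 at 0.30 (SE 0.22), with Hspa9 at -0.17 (SE 0.29). It was 0.02 over 10 heat shock genes, from Hspb1 at -1.24 (SE 0.53) to Hsph1 at 0.72 (SE 0.41), with Hspa8 at 0.15 (SE 0.31). It was -0.09 over 11 hypoxia genes, from Car9 at -0.78 (SE 1.09) to Ankrd37 at 0.76 (SE 0.42), with Ldha at -0.09 (SE 0.54). In these 3 lists 3xCR replicate 4 was the highest library for 3, 1 and 2 genes. Across all 9 pathway lists limma, edgeR, DESeq2 and voom called 0 genes at an adjusted p under 0.05. DESeq2 gave no adjusted p for some genes of these lists, Creld2, Cth and Hspb1 among them. At an unadjusted p under 0.05 limma took 5 with a lower and 0 with a higher mean. That is 3.62% of the 138 genes tested in these lists, against 4.66% of all genes tested.

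The 10 genes were unequally alike over the libraries. Atf4, Atf5, Ddit3, Trib3 and Chac1 had Pearson's r of 0.86 to 0.99 with each other over the 7 libraries (log2 values), with Atf5 and Chac1 the most alike (0.99). Without 3xCR replicate 4 the same 10 pairs had r of 0.51 to 0.96, and Atf5 and Chac1 remained at 0.96. Asns had r of 0.71 to 0.87 with these 5 genes, and 0.39 to 0.80 without 3xCR replicate 4. Nupr1 was most like Trib3 (0.81, and 0.86 without 3xCR replicate 4) and least like Psat1 (0.46). Psat1 and Phgdh, neighbouring steps of a single pathway, had r of -0.19. The points share library and depth, and these values are descriptions over few libraries.

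Of 12632 genes with a mean of at least 50 normalized counts, those most like Nupr1 over the 7 libraries were BC026585 (r = 0.97), Zfp511 (0.95), Hist1h4i (0.94), 2810428I15Rik (0.93) and Cyp4f13 (0.93). Trib3 was the closest of the other 9 genes, at place 139. BC026585 had 299, 282 and 325 normalized counts in 3xCR and 195, 173, 240.4 and 205 in GPC6, the same order of groups as Nupr1 with a far smaller difference. After the group means had been removed, the most alike were Angpt1 (0.97), Ampd2 (0.96), Fat4 (0.96), Rnmtl1 (0.95) and Ankrd13c (0.95), and Phgdh was the closest of the other 9 (0.86, place 34). Atf4 was at 0.08 by that measure. Nupr1 and Atf4 both had their highest value in 3xCR replicate 4, and so few libraries cannot show that they are unlike.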

How the data were processed

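Libraries were made from poly(A) RNA with a stranded kit; the RNA amount and extraction kit given in the labels are not those of the study's methods. The authors aligned reads to mm10 with STAR 2.5.0a, counted them per gene and normalized with DESeq2 1.20.0. The deposited values are a normalized signal per gene (each library's counts over its size factor), without length correction. Of 19282 entries, 25 bore dates in place of gene names (0.254% to 0.361% of the reads) and were left out. Whole reads were recovered for 100% of values (within 0.01 of a whole read), on which edgeR called 0 genes.

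The 10 genes, the gene lists and the tests were chosen with earlier results of these data known. The test was limma 3.58.1 (R 4.3.3) on log2(normalized count + 1) over 14782 genes with a mean of at least 10, two-sided, with Benjamini-Hochberg adjustment. Each library is 1 animal, so p-values measure the spread between these animals. edgeR 4.0.16, DESeq2 1.42.0 and voom on recovered reads, pseudocounts of 0.5 and 5, other filters and scalings, no variance trend, library weights, a replicate block and leaving out each library were alternatives. Scripts were tested on simulated data. Some items are not reported here. From each pathway list (9 lists) the text names the most abundant gene and those with the lowest and highest log2 fold change. The cell type lists were neurons, astrocytes, oligodendrocytes, oligodendrocyte precursors, microglia, macrophages and monocytes, endothelial cells, pericytes and fibroblasts, choroid plexus and proliferating cells, and plasma and B cells were added after their values had been seen. Gene spans and exon lengths came from GENCODE M21, promoters from RefSeq (GRCm38.p6). Dele1 and Ca9 found no entry by symbol (Ca9 was read as Car9), and Fgf21 did not pass the filter.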

Additional observations from a re-analysis of the deposited data

How the results depend on the processing

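The count of 0 genes called by limma stayed at 0 with edgeR, voom, both pseudocounts, all filters and scalings, without a variance trend and without each library in turn (0 to 0). DESeq2 called 9 genes and 1 of the 10 stress genes (Nupr1), with no adjusted p for Atf3, Trib3 and Chac1. Weights per library gave 1962 genes, 1 of the 10 (Nupr1) and 8 pathway genes, with a weight of 8.71 on 3xCR replicate 3, 4.47 on GPC6 replicate 3 and under 1 on the others, so that fit rests on few libraries; it moved the median over the 10 genes to -0.20, the tRNA synthetases to 0.10 and the ATF4 stress outputs to 0.23, and took Nupr1 to -1.80, Ddit3 to 0.02, Chac1 to 0.14 and Asns to 0.10. The replicate numbers did not pair the libraries (r of the deviations from group means for the same number -0.19, 0.12 and 0.30), and with the replicate block 0 genes and 0 of the 10 were called. Leaving out each library gave medians of -1.49 to -0.66 for the 10 genes and, for the pathway lists, -0.28 to -0.0093 (ISR kinases, -0.0093 without 3xCR replicate 4), -0.63 to -0.24 (ATF and CEBP partners), -0.61 to -0.31 (amino acid genes), -0.42 to -0.05 (tRNA synthetases), -0.63 to 0.02 (ATF4 stress outputs), -1.04 to -0.20 (endoplasmic reticulum chaperones), -0.14 to 0.02 (mitochondrial), -0.33 to 0.37 (heat shock) and -0.38 to 0.22 (hypoxia). The count of the 10 genes with non-overlapping groups ran from 2 to 6, while the share of all genes tested ran from 4.22% to 10.6%, an alternative added after seeing the data. The log2 fold change of Nupr1 ran from -2.81 to -1.80 over all alternatives. No scaling moved the median of all genes by more than 0.1. The smallest library allows 4.64 normalized counts at 0 reads (3 reads), a level that Adm2 did not pass in any GPC6 library.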

Other observations

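Neuronal markers had a higher mean in GPC6 for 10 of 10 genes with a median log2 fold change of 1.66, and 1.01 without GPC6 replicate 1, which was the highest library for 9 of them. Snap25, a synaptic vesicle fusion protein, had 1440.5, 681 and 126 normalized counts in 3xCR and 20138, 708, 7469 and 2490 in GPC6. The medians were 0.11 over 10 astrocyte markers, -0.68 over 9 oligodendrocyte markers, 0.00 over 6 oligodendrocyte precursor markers, -0.54 over 8 microglia markers, -0.57 over 8 macrophage and monocyte markers, 0.35 over 7 endothelial markers, -1.14 over 8 pericyte and fibroblast markers, -1.36 over 6 choroid plexus markers, -0.66 over 8 proliferation genes and -1.47 over 11 plasma and B cell genes. Of the 6 choroid plexus markers tested, 5 were highest in GPC6 replicate 1, and Folr1 and Otx2 were at 0 in GPC6 replicate 2. Ttr, one of them, had 11813 normalized counts in GPC6 replicate 1 and 10.9 to 31.9 in the other GPC6 libraries. Without 3xCR replicate 4 the pericyte and fibroblast median was 0.01, that of the plasma and B cell genes 0.28, that of the macrophage and monocyte markers -0.03, that of the astrocyte markers -0.36 and that of the oligodendrocyte precursor markers -0.38. Without GPC6 replicate 1 the medians were 0.24 for the proliferation genes, -0.08 for the macrophage and monocyte markers, -0.21 for the astrocyte markers, 0.37 for the oligodendrocyte precursor markers, -1.17 for the oligodendrocyte markers, -2.02 for the choroid plexus markers, -0.92 for the plasma and B cell genes and 0.53 for the endothelial markers.

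Cryab, a small heat shock protein abundant in glia and named after its values were seen, had 4399, 4181 and 2526 normalized counts in 3xCR and 1559.6, 3105, 1491 and 1757 in GPC6. Its log2 fold change was -0.93 (SE 0.33). Hsp90aa1 (0.44, SE 0.24) was the 1 of the 10 heat shock genes with non-overlapping groups and a higher mean in GPC6, against 2.80% of the genes tested.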
